A study of Mus musculus with 16 samples.

Results

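Kcnk13, Kcnk6, Kcnj2, Kcna3, Kcnn4, Trpm2, Trpm7, Trpv2 and Trpv4 encode 5 potassium channels and 4 transient receptor potential (TRP) channels of mononuclear phagocytes. The 9 genes were taken from the deposited count table by their symbols, among 45664 gene entries. All 9 passed the filter on low counts, which 15754 entries passed. RNA was sequenced from cells sorted out of C57BL/6 mice 8 to 10 weeks old, in 4 populations of 4 libraries each, 16 in all. The gate CD45+CD11b+ defined microglia in both the retina and the brain. It was narrowed by CD64 and F4/80 for the cornea macrophages, and by CD115 and Ly6C for the monocytes of the bone marrow. The labels name no treatment or genetic modification of these mice, apart from an extraction text that describes another mouse line and tissue. The microglia gate holds no marker that separates microglia from other CD11b+ cells of the retina or brain. Each cornea and retinal library came from 10 pooled mice. For the 8 libraries of brain and bone marrow the description field speaks of retinal microglia, which contradicts their titles and source names. They were grouped by source name, and how many mice went into each is not known here.

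Potassium channels let potassium leave the cell along its gradient, which holds the membrane at a negative potential and so keeps up the driving force for calcium entry. Microglia at rest rely on a tonic two-pore leak conductance that P2Y12 receptor signalling enhances, and activated macrophages are known for inward rectifier, voltage-gated and calcium-activated potassium currents. Potassium efflux is also a known trigger of the NLRP3 inflammasome. TRP channels are cation channels, most of them permeable to calcium, that open to stimuli such as heat, swelling, oxidative stress, lipids or a fall in magnesium.

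Levels are given as CPM, counts scaled to the effective library size in mega-counts (total count times a scaling factor by the trimmed mean of M-values, TMM). A gene was called where the adjusted p of edgeR's quasi-likelihood test was under 0.05. Total counts ranged from 8.68 to 21.76 M (mega-counts). TMM factors were 0.66 to 0.70 in the cornea libraries and 1.07 to 1.25 in the others, and scaling by total counts alone moved the median log2 fold change of all genes by -0.79 (cornea against retina), -0.67 (cornea against brain) and -0.67 (cornea against bone marrow). Sequencer lane 2 took the 4 retinal libraries, cornea libraries 1 to 3 and bone marrow library 1. Lane 3 took the 4 from brain, bone marrow libraries 2 to 4 and cornea library 4. Retina and brain shared no lane, so between them lane and tissue cannot be told apart except through the lane effect measured in the cornea and bone marrow. Titles of cornea library 1 and retinal libraries 1 and 3 lack a letter that the other titles carry, and each shares its title number with another library of its population. The sources used here do not say whether these came from separate cells, so p-values measure the spread between libraries. In bulk RNA, fewer cells of a type and less RNA per cell cannot be told apart.

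Summed levels of 5 microglia markers (P2ry12, Tmem119, Sall1, Cx3cr1, Siglech) were 14530 to 17288 CPM in retinal and 23725 to 27433 CPM in brain libraries, against 202.6 to 239.6 in cornea and 347 to 655 in bone marrow libraries. The 7 tissue macrophage markers summed to 23167 to 31313 CPM in cornea, 9610 to 12335 in retina, 13089 to 16642 in brain and 4693 to 5648 in bone marrow libraries. The 5 classical monocyte markers summed to 9832 to 14225 CPM in bone marrow and to at most 67.6 CPM elsewhere. Markers of other cells were present too: 8 rod photoreceptor markers summed to 778 to 7082 CPM in retinal libraries (at most 5.77 elsewhere), 6 corneal epithelium markers to 233 to 1331 CPM and 6 keratocyte markers to 1386 to 2582 CPM in cornea libraries (at most 2.99 and 0.771 elsewhere), and 7 granulocyte and 6 erythroid markers to 619 to 3012 and 371 to 2483 CPM in bone marrow libraries. Lymphocyte markers (6 genes) reached 43.2 to 79.8 CPM in the microglia libraries, 23.1 to 29.6 in bone marrow and 3.23 to 4.91 in cornea. Retinal neuron markers (6 genes) summed to 20.7 to 139 CPM in retinal libraries, and endothelium markers (5 genes), with Cldn5 at 0 in every library, reached at most 57.9 CPM. Glial markers (5 genes) reached 442 CPM in a brain library, with Gfap at 0 there. Dendritic and mast cell markers (6 genes) were highest in cornea, at 62.3 to 102 CPM. The part of these cells in the results below was not tested, also where marker values stand beside a gene.

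Of the 9 channel genes, 8 were called between cornea macrophages and each microglia population and 1 between retinal and brain microglia, and all genes were likewise called far more often in the former comparisons. In cornea against retina, 8 members were called, 4 higher and 4 lower in cornea; of all tested genes 66% were called (30.9% higher, 35.1% lower). In cornea against brain the same 8 members were called, again 4 higher and 4 lower, against 66.8% of all genes (33.8% higher, 33.1% lower). Cornea against bone marrow gave 7 called members, 5 higher and 2 lower (all genes 63.3%, with 32.2% higher and 31.1% lower). Retina against bone marrow also gave 7, 5 higher and 2 lower (all genes 59.3%, with 32.2% higher and 27.1% lower), and brain against bone marrow 8, 4 higher and 4 lower (all genes 56%, with 28.5% higher and 27.4% lower). Retina against brain gave 1, higher in retina (all genes 10.5%, with 6.95% higher and 3.6% lower). That background is 1662 genes, which fell to 463 with lane as a term and to 813 with title tags as a replicate block. Scaled by total counts alone, the members split into 3 higher and 5 lower in cornea against retina (all genes 2924 and 8488, beside 4862 and 5537 with TMM). In cornea against brain all 9 members were then called, 4 higher and 5 lower (all genes 3564 and 7611, beside 5317 and 5209). The split was 4 and 4 in cornea against bone marrow (all genes 3502 and 7535, beside 5078 and 4902). It was 5 and 1 in retina against bone marrow (all genes 5539 and 3813, beside 5071 and 4269). All genes split into 1351 and 293 in retina against brain (1095 and 567 with TMM). The called share of the 9 members was thus close to that of all genes in retina against brain and above it in the other 5 comparisons, where most genes were called too; with 9 members chosen with earlier results known, no test was made of this difference. The median size of the log2 fold change over the 9 members was 1.96 in cornea against retina and 2.30 in cornea against brain, beside 1.22 and 1.26 over all tested genes. It was 0.34 in retina against brain, equal to the 0.34 of all genes. Against bone marrow it was 0.89 for cornea (1.16 over all genes), 0.87 for retina (0.98) and 1.55 for brain (0.96). Comparisons that involve one population share its 4 libraries, so these counts are not independent of each other.

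**Figure D1:**
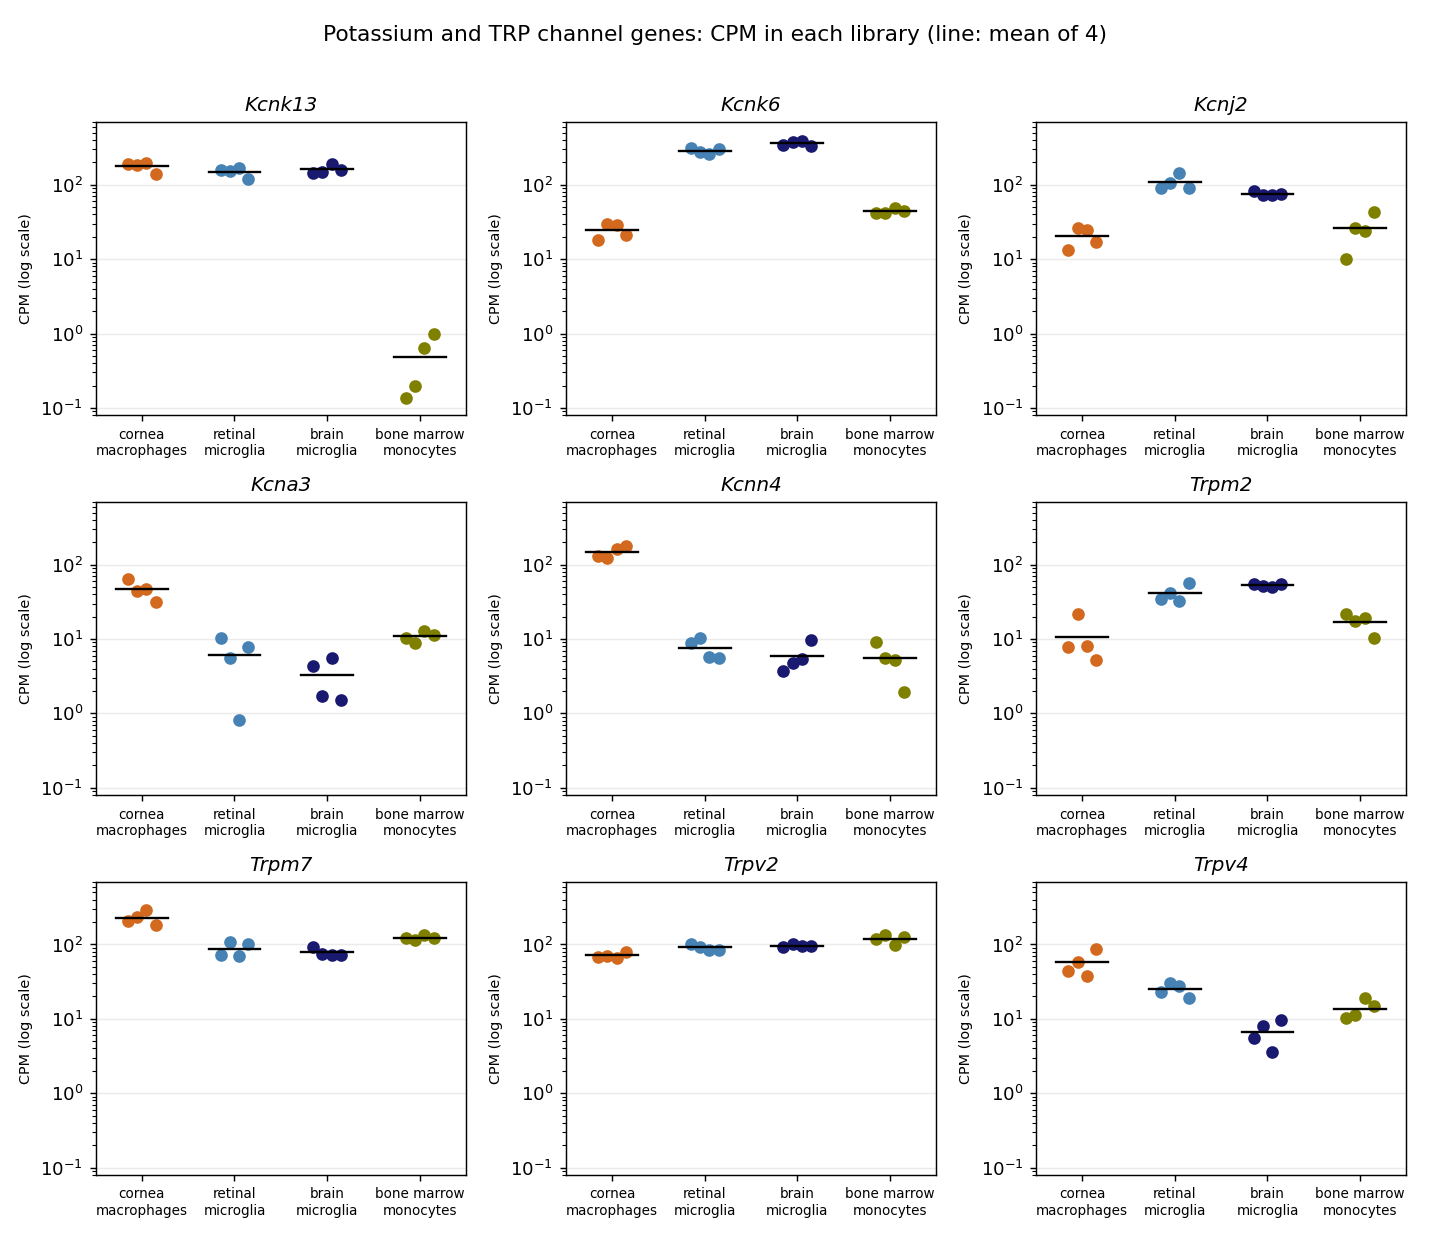
Each panel plots the CPM (log scale) of 1 channel gene in the 16 libraries, by population; points are libraries in replicate order and the line is the mean of 4. Kcnk13 drops to under 1 CPM in all 4 bone marrow libraries, Kcnn4 and Kcna3 are highest in cornea, and Kcnk6, Kcnj2 and Trpm2 are highest in the microglia populations.

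The sequence just before the start site is shown for 5 members that cover the patterns described below: Kcnk13 (low in bone marrow only), Kcna3 and Kcnn4 (highest in cornea), Trpv2 (nearly level) and Trpv4 (the member that differed between retina and brain). RefSeq's promoter table (build GRCm38.p6) held entries for 8 of the 9 members, in 10 windows; Kcnk6 had none. Each window is the 250 bases before a start site, 5′ to 3′ on the gene's strand. Capitals mark GAGGAA on either strand (TTCCTC where it lies on the other strand), the core that PU.1-type factors of myeloid cells recognise. The windows are chr12:99964249-99964498 (Kcnk13, plus strand), chr3:107035912-107036161 (Kcna3, plus strand), chr7:24370013-24370262 (Kcnn4, plus strand), chr11:62574236-62574485 (Trpv2, plus strand, the first of its 3 windows) and chr5:114658422-114658671 (Trpv4, minus strand).
Kcnk13: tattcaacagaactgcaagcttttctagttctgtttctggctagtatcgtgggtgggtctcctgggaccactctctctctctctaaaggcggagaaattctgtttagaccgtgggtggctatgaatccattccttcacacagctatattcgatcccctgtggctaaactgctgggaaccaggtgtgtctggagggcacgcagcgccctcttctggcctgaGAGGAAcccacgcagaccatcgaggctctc
Kcna3: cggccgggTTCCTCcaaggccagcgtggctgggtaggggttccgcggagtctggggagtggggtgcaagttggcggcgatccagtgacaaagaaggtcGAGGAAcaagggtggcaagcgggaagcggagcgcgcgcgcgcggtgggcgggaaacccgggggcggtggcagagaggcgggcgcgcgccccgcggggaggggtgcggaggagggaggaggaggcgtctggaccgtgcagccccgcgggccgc
Kcnn4: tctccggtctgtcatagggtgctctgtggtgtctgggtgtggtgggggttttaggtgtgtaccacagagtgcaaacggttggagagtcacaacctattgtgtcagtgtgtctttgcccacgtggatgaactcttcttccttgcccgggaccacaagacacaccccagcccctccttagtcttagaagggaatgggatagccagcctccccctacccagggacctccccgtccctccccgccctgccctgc
Trpv2: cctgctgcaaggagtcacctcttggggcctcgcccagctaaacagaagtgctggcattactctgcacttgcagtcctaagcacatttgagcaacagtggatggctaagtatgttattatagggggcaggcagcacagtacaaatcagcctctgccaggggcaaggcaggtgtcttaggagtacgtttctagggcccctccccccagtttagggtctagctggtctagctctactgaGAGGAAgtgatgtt
Trpv4: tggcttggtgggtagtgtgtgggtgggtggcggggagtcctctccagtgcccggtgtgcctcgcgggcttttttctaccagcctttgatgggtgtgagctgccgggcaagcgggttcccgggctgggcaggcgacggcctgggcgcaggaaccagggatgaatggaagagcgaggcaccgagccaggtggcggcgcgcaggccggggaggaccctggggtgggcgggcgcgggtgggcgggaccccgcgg
GAGGAA was present before a start site of 4 members: Kcnk13 (first base 30 bases before the start), Trpv2 (14 bases before), Kcna3 (152 bases before, and 242 on the other strand) and Kcnj2 (191 bases before, and 250 on the other strand). It occurs in 23.3% of all 32851 windows of this length. No member window held TGANTCA, the AP-1-type motif (6.75% of all windows), or the IRF-type motif, GAAA and GAAA with any 2 bases between them (2.98%), on either strand. None of the 3 motifs is contained in another. The 4 members with the motif include 1 that was nearly absent from bone marrow, 1 highest in cornea, 1 highest in the microglia populations and 1 nearly level across populations.

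Kcnk13 encodes THIK-1, the two-pore channel that carries the tonic potassium leak of microglia. The gene spans chr12:99964499-100062682 on the plus strand (GENCODE vM21, GRCm38), and its promoter is the first sequence above. Its level was 193, 186, 195 and 138 CPM in cornea libraries 1 to 4, 157, 156, 167 and 120 CPM in retinal libraries, and 145, 149, 193 and 160 CPM in brain libraries. Bone marrow libraries had 0.135, 0.199, 0.638 and 0.993 CPM, resting on 26 counts in all. The 12 tissue libraries overlapped each other and all lay far above the 4 bone marrow libraries. Means were 178 ± 27.0 (SD, n = 4), 150 ± 20.5, 162 ± 21.8 and 0.491 ± 0.402 CPM, in the same order. Log2 fold changes against bone marrow were 8.55 for cornea (SE 0.34, adjusted p = 1.995e-12), 8.31 for retina (adjusted p = 3.095e-12) and 8.41 for brain (adjusted p = 2.108e-12). Among the tissue populations Kcnk13 was not called, with log2 fold changes of 0.25 (cornea against retina, SE 0.22), 0.14 (cornea against brain, SE 0.22) and -0.11 (retina against brain, SE 0.22). Scaling by total counts alone turned both cornea values, to -0.54 (adjusted p = 0.0324) and -0.53 (adjusted p = 0.0365), within the shift of all genes given above.

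Kcnk6 encodes TWIK-2, a two-pore channel that has been described as a route of potassium efflux in macrophages; it lies at chr7:29221926-29232515 on the minus strand. Cornea libraries had 18.1, 29.8, 28.5 and 21.4 CPM, retinal libraries 312, 274, 259 and 301 CPM, brain libraries 339, 371, 393 and 335 CPM, and bone marrow libraries 41.5, 42.1, 48.1 and 44.9 CPM. No library of 1 population overlapped with another population. The order was brain (360 ± 27.6 CPM), retina (286 ± 24.2), bone marrow (44.1 ± 3.01) and cornea (24.5 ± 5.60). Retina against brain was not called (log2 fold change -0.33, SE 0.14, adjusted p = 0.152), whereas retina exceeded bone marrow by 2.70 (SE 0.15, adjusted p = 1.127e-10). Cornea fell below bone marrow, at -0.85 on the log2 scale (SE 0.14, adjusted p = 6.737e-05), a call that ended with lane 2 libraries only (-0.70, adjusted p = 0.0796, with 1 bone marrow library). Cornea was lower than retina at -3.55 (SE 0.15, adjusted p = 4.464e-12) and lower than brain at -3.88 (SE 0.16, adjusted p = 1.677e-12). The 2 two-pore genes therefore had different patterns: Kcnk13 was shared by cornea and microglia, and Kcnk6 was high in microglia and at its lowest in cornea.

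Kcnj2 encodes the inward rectifier Kir2.1, which passes potassium best near the resting potential; it lies at chr11:111066164-111076821 on the plus strand. Levels were 13.2, 26.3, 24.6 and 17.2 CPM in cornea, 90.8, 106, 142 and 91.1 CPM in retina, 82.7, 72.9, 72.5 and 74.2 CPM in brain, and 10.2, 26.5, 24.2 and 42.7 CPM in bone marrow. All 8 microglia libraries lay above all cornea and bone marrow libraries, and the cornea and bone marrow libraries overlapped. Kcnj2 was lower in cornea than in retina (log2 fold change -2.40, SE 0.32, adjusted p = 5.224e-06) and than in brain (-1.89, SE 0.32, adjusted p = 5.838e-05). It was higher in retina and brain than in bone marrow, by 2.06 (SE 0.32, adjusted p = 3.109e-05) and 1.55 (SE 0.31, adjusted p = 4.423e-04). Retina and brain libraries did not overlap, but the difference of 0.51 (SE 0.30, adjusted p = 0.334) was not called. Cornea against bone marrow was not called (-0.34, SE 0.31, adjusted p = 0.358) and rested on single bone marrow libraries: it was -0.62 (adjusted p = 0.0400) without bone marrow library 1 and 0.01 without library 4, the lowest and the highest of that group. The lanes went opposite ways, with 1.07 (adjusted p = 0.0900, with 1 bone marrow library) in lane 2 and -0.86 (adjusted p = 0.0371) in lane 3. It was -1.02 (adjusted p = 0.0078) with total counts alone and 0.10 (adjusted p = 0.848) with lane as a term.

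Kcna3 encodes Kv1.3, a voltage-gated channel known from lymphocytes and activated microglia; the single-exon gene lies at chr3:107036169-107038070, on the plus strand, within the span of the antisense gene Gm27008, with which it shares no exonic base. Its level was 63.6, 44.2, 46.7 and 31.9 CPM in cornea, 10.3, 5.56, 0.807 and 7.88 CPM in retina, 4.28, 1.73, 5.55 and 1.52 CPM in brain, and 10.5, 8.96, 12.7 and 11.5 CPM in bone marrow. The 4 cornea libraries lay above the other 12. Lymphocyte markers summed to 3.23 to 4.91 CPM in the same 4 cornea libraries, below the other 12. Kcna3 was higher in cornea than in retina by 2.93 (SE 0.52, adjusted p = 1.111e-04), than in brain by 3.84 (SE 0.56, adjusted p = 1.253e-05) and than in bone marrow by 2.09 (SE 0.51, adjusted p = 0.0017) on the log2 scale. The last call ended with lane 2 libraries only (2.29, adjusted p = 0.106). Brain was below bone marrow (-1.74, SE 0.53, adjusted p = 0.0100), and retina against bone marrow was not called (-0.83, SE 0.50, adjusted p = 0.163). Retinal library 3, at 0.807 CPM, decided the contrast of retina with brain: the log2 fold change was 0.91 (SE 0.53, adjusted p = 0.318) with it and 1.28 (adjusted p = 0.0418) without it.

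Kcnn4 encodes KCa3.1, the calcium-activated potassium channel of intermediate conductance, and lies at chr7:24370263-24386690 on the plus strand. Cornea libraries had 130, 123, 162 and 180 CPM, against 8.90, 10.4, 5.70 and 5.63 CPM in retina, 3.68, 4.77, 5.35 and 9.56 CPM in brain, and 9.16, 5.57, 5.29 and 1.91 CPM in bone marrow. Every cornea library was thus above 120 CPM while the highest of the other 12 was 10.4 CPM. The log2 fold change of cornea was 4.28 against retina (SE 0.39, adjusted p = 3.977e-08), 4.66 against brain (SE 0.40, adjusted p = 1.969e-08) and 4.74 against bone marrow (SE 0.40, adjusted p = 1.684e-08). These were the largest differences of any member between cornea and the microglia populations. Corneal epithelium markers were highest in cornea library 1 (1331 CPM) and lowest in library 4 (233 CPM), with Kcnn4 at 130 and 180 CPM in those libraries. Keratocyte markers were 1386, 1493, 2582 and 2220 CPM in cornea libraries 1 to 4, lower in libraries 1 and 2 and higher in 3 and 4, as Kcnn4 was. The part of either marker list in the level of Kcnn4 was not tested. Among retina, brain and bone marrow the libraries overlapped and no contrast was called (0.37, 0.46 and 0.08 on the log2 scale for retina against brain, retina against bone marrow and brain against bone marrow; SE 0.36 to 0.37).

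Trpm2 encodes a calcium-permeable channel gated by ADP-ribose and opened by oxidative stress; it lies at chr10:77907722-77970563 on the minus strand and shares 44 and 47 exonic bases with the snoRNA genes Gm22394 and Gm22871. Levels were 7.81, 21.5, 8.14 and 5.24 CPM in cornea, 34.3, 42.0, 32.6 and 56.5 CPM in retina, 54.5, 51.0, 49.8 and 54.8 CPM in brain, and 21.5, 17.6, 19.2 and 10.4 CPM in bone marrow. The 8 microglia libraries lay above all others, and cornea overlapped with bone marrow through cornea library 2. Cornea was lower than retina (log2 fold change -1.96, SE 0.35, adjusted p = 9.852e-05) and brain (-2.30, SE 0.35, adjusted p = 2.036e-05). Brain was above bone marrow by 1.61 (SE 0.34, adjusted p = 6.392e-04) and retina by 1.27 (SE 0.34, adjusted p = 0.0039); the retinal call ended with lane as a term (0.66, adjusted p = 0.220) and with lane 2 libraries only (0.96, adjusted p = 0.243). Cornea against bone marrow was not called (-0.69, SE 0.34, adjusted p = 0.0879), but it was without cornea library 2 (-1.30, adjusted p = 4.705e-04), without bone marrow library 4 (-0.88, adjusted p = 0.0389), with lane as a term (-1.16, adjusted p = 0.0139), with lane 3 libraries only (-1.58, adjusted p = 0.0026) and with total counts alone (-1.38, adjusted p = 0.0018).

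Trpm7 encodes a channel fused to a kinase that conducts magnesium, zinc and calcium; it lies at chr2:126791565-126876230 on the minus strand. Cornea libraries had 209, 233, 292 and 182 CPM, retinal libraries 71.3, 109, 69.0 and 101 CPM, brain libraries 93.8, 74.5, 71.8 and 72.0 CPM, and bone marrow libraries 123, 115, 134 and 123 CPM. The populations formed 3 steps without overlap: cornea highest, bone marrow next, and the overlapping retina and brain libraries lowest. Cornea was higher than retina by 1.38 (SE 0.17, adjusted p = 2.225e-06), than brain by 1.55 (SE 0.17, adjusted p = 5.805e-07) and than bone marrow by 0.89 (SE 0.17, adjusted p = 2.218e-04) on the log2 scale. With total counts alone the last value was 0.22 (adjusted p = 0.292). Retina and brain were lower than bone marrow, at -0.49 (SE 0.17, adjusted p = 0.0200) and -0.66 (SE 0.17, adjusted p = 0.0033). The retinal call ended without retinal library 1 (-0.41, adjusted p = 0.0652) or 3 (-0.40, adjusted p = 0.0589), without both of them and cornea library 1 (-0.22, adjusted p = 0.321), with total counts alone (-0.37, adjusted p = 0.0879) and with lane 2 libraries only (-0.47, adjusted p = 0.275).

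Trpv2 encodes a calcium-permeable channel that has been linked to phagocytosis in macrophages; it lies at chr11:62574486-62600515 on the plus strand. It was the most even member, with 67.5, 70.8, 66.4 and 80.1 CPM in cornea, 102, 92.4, 85.5 and 84.4 CPM in retina, 93.8, 100, 95.0 and 96.0 CPM in brain, and 119, 133, 99.8 and 128 CPM in bone marrow. Cornea libraries lay below all others, while bone marrow library 3 lay within the range of retina and brain. Cornea was lower than bone marrow (log2 fold change -0.75, SE 0.12, adjusted p = 2.733e-05), brain (-0.43, SE 0.12, adjusted p = 0.0035) and retina (-0.35, SE 0.12, adjusted p = 0.0131). Retina and brain were lower than bone marrow, at -0.40 (SE 0.12, adjusted p = 0.0075) and -0.32 (SE 0.12, adjusted p = 0.0280). The 4 calls under 0.5 in size were not stable. Cornea against retina ended without cornea library 1 and retinal libraries 1 and 3 (-0.31, adjusted p = 0.0813). Cornea against brain (-0.35, adjusted p = 0.0636) and retina against bone marrow (-0.31, adjusted p = 0.106) ended with lane as a term. Brain against bone marrow ended without brain library 1, 3 or 4 or bone marrow library 2 or 4 (-0.32 to -0.27, adjusted p = 0.0537 to 0.0845). That call also ended with RLE scaling factors in place of TMM (-0.26, adjusted p = 0.0728) and with no filter on low counts (-0.31, adjusted p = 0.102). Within lanes, cornea against brain (-0.29, adjusted p = 0.228) and brain against bone marrow (-0.30, adjusted p = 0.0722) ended in lane 3, and retina against bone marrow (-0.37, adjusted p = 0.208) in lane 2.

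Trpv4 encodes a channel opened by cell swelling, warmth and mechanical load; it lies at chr5:114622152-114658421 on the minus strand. Cornea libraries had 43.9, 58.9, 38.3 and 88.0 CPM, retinal libraries 23.2, 30.3, 27.4 and 19.2 CPM, brain libraries 5.48, 8.12, 3.57 and 9.71 CPM, and bone marrow libraries 10.2, 11.1, 18.8 and 14.7 CPM. No library of any population overlapped with another population, in the order cornea, retina, bone marrow, brain. Retina exceeded brain by 1.89 on the log2 scale (SE 0.32, adjusted p = 9.018e-04), and with lane as a term by 2.62 (adjusted p = 0.0014). The call held in each of the 8 fits that left out 1 retinal or brain library. Rod markers were highest in retinal library 4 (7082 CPM) and lowest in library 3 (778 CPM), where Trpv4 was 19.2 and 27.4 CPM. Glial markers summed to 192, 203, 213 and 238 CPM in retinal libraries 1 to 4, and to 367 to 442 CPM in brain libraries. These sums do not give the direction of each marker: Gfap had no count in any brain library, whereas each of the 5 glial markers had counts in retina. The part of either marker list in the retinal level of Trpv4 was not tested. Cornea was higher than brain by 3.08 (SE 0.33, adjusted p = 3.273e-07), than bone marrow by 2.07 (SE 0.31, adjusted p = 2.03e-05) and than retina by 1.19 (SE 0.30, adjusted p = 0.0023). The last was 0.40 with total counts alone (adjusted p = 0.240). Corneal epithelium markers were 1331, 367, 628 and 233 CPM in cornea libraries 1 to 4, highest where Trpv4 was 43.9 CPM and lowest where it was 88.0 CPM. Keratocyte markers were highest in library 3 (2582 CPM), where Trpv4 was lowest at 38.3 CPM, and were 1386, 1493 and 2220 CPM in libraries 1, 2 and 4. Brain was below bone marrow (-1.02, SE 0.32, adjusted p = 0.0114). Retina was above bone marrow by 0.87 (SE 0.31, adjusted p = 0.0214), and this call ended without retinal library 2 (0.76, adjusted p = 0.0613), bone marrow library 1 (0.74, adjusted p = 0.0718) or 2 (0.78, adjusted p = 0.0636). It also ended with the libraries of title letter b only, which leaves out retinal libraries 1 and 3 and cornea library 1 (0.87, adjusted p = 0.0724).

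**Figure D2:**
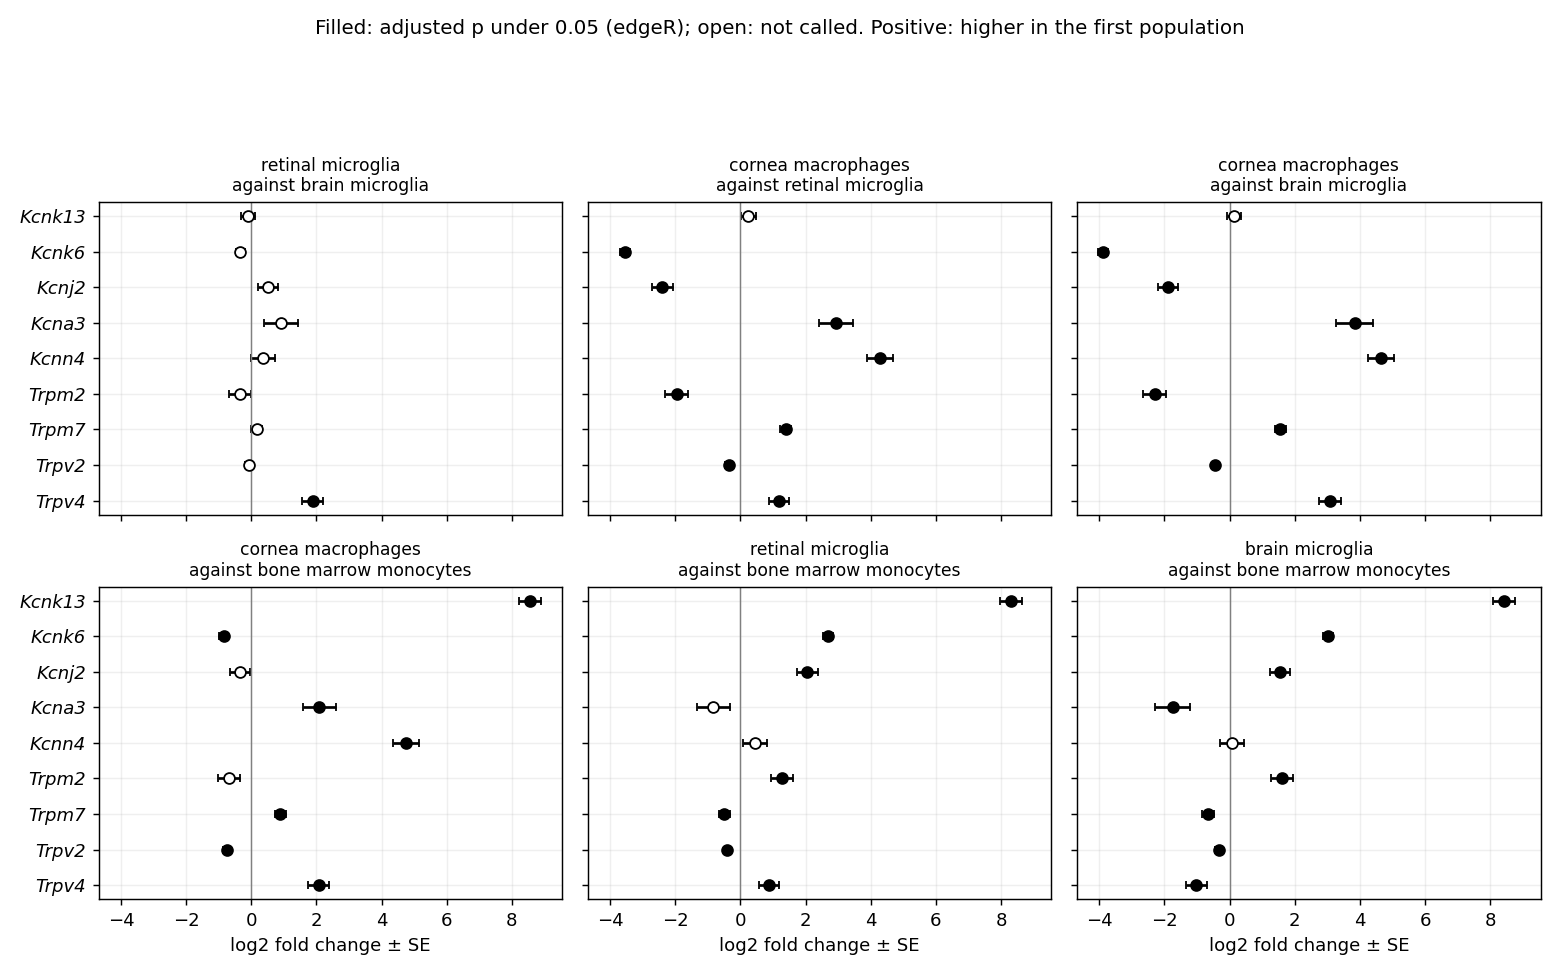
Each panel plots the log2 fold change of the 9 channel genes in 1 comparison of populations, with its SE as a bar; filled points were called at an adjusted p under 0.05 and positive values are higher in the first population. Trpv4 is the only filled point in retinal against brain microglia (1.89), and Kcnk13 lies between 8.31 and 8.55 in the 3 comparisons with bone marrow and near 0 in the others.

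Scaled to gene length (RPKM, here CPM per kilobase of the deposited gene length), the leading channel gene differed by population. In cornea, Kcnn4 (73.1 ± 13.3 RPKM) and Kcnk13 (57.2 ± 8.67) led, followed by Kcna3 (23.7) and Trpm7 (20.2). The deposited length of Kcnn4, 2034 bases, is far under the 5115 bases of its exons in GENCODE vM21. With the latter, Kcnn4 came to 29.1 RPKM and second place after Kcnk13. The counts were not remade over the GENCODE exons, and the annotation used for counting is not known here. A value with the GENCODE length may thus divide by bases that were not counted. In retina and brain, Kcnk6 (70.0 and 87.9 RPKM) and Kcnk13 (48.2 and 52.0) led, followed by Trpv2 (20.3 and 21.4) and Kcnj2 (19.7 and 13.9). In bone marrow, Trpv2 led at 26.7 RPKM, followed by Trpm7 (10.9), Kcnk6 (10.8) and Kcna3 (5.54), while Kcnk13 was last at 0.158. The lowest members were Trpm2 in cornea (0.867 RPKM), Kcna3 in retina (3.12) and Trpv4 in brain (1.65), though Kcnn4 was last in both microglia populations with the GENCODE length.

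Summed over the 5 potassium channel genes, the length-scaled level was 155 to 178 RPKM in cornea libraries, 136 to 153 in retinal, 149 to 177 in brain and 21.9 to 25.9 in bone marrow libraries. The largest parts were Kcnk13 and Kcnn4 in cornea and Kcnk13 and Kcnk6 in microglia, and the bone marrow sums lay below all others. The overlap of cornea with microglia depended on the length used. With the GENCODE lengths, which may include bases not counted, the sums were 105 to 130.4 RPKM in cornea and 133 to 149 in retinal libraries. They were 146 to 174 in brain and 19.2 to 25.4 in bone marrow libraries. In that scaling every cornea library was below every microglia library. The 4 TRP genes summed to 45.0 to 55.9 RPKM in cornea, 34.5 to 41.1 in retina, 32.4 to 35.0 in brain and 40.2 to 43.9 in bone marrow libraries, a much narrower span.

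**Figure D3:**
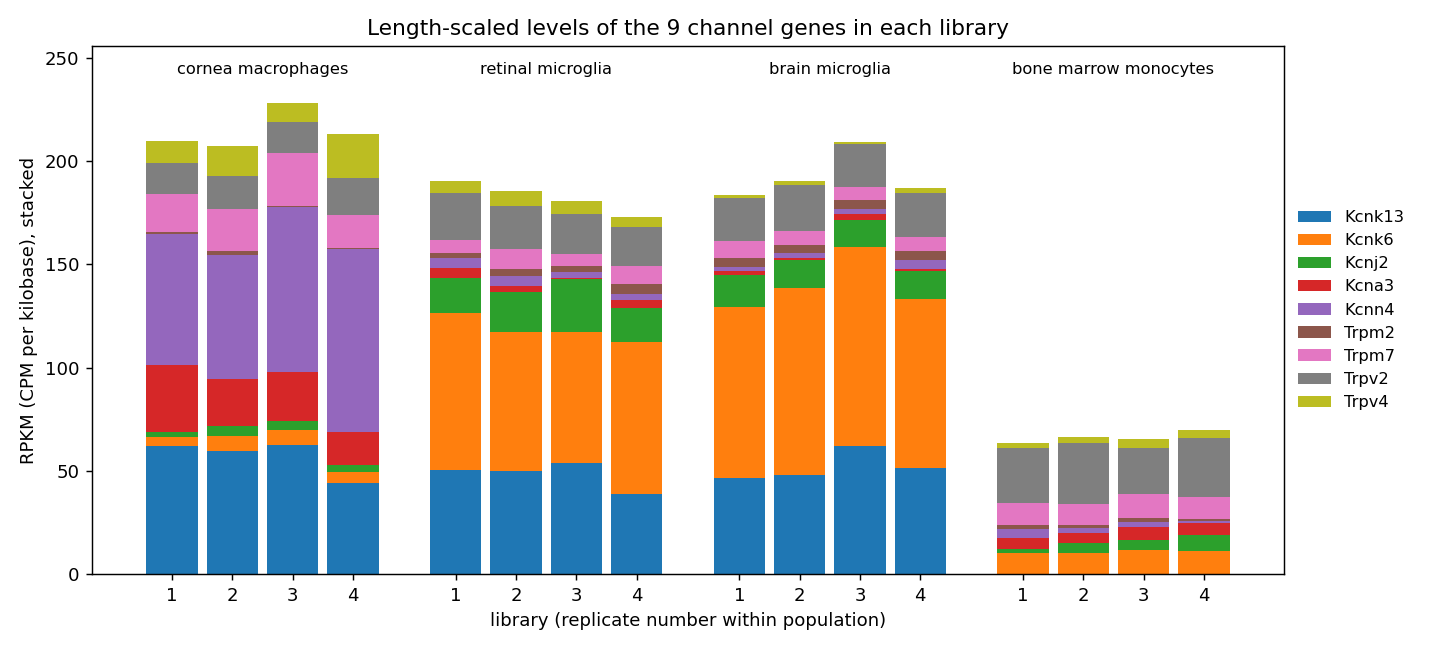
Stacked bars plot the RPKM of the 9 channel genes in each of the 16 libraries, by population, with the deposited gene lengths. Kcnk13 and Kcnn4 fill most of the cornea bars and Kcnk6 and Kcnk13 most of the microglia bars, while the bone marrow bars are lower and consist mainly of Trpv2, Trpm7 and Kcnk6.

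The rest of each channel family was read from the same fit, in lists that include the members. A gene high in any population could pass the filter. For genes nearly absent elsewhere, the counts, medians and single fold changes below were therefore partly set by the filter. Of 14 two-pore genes 4 were tested: retina against brain gave 0 higher and 1 lower, cornea against retina 1 and 2, cornea against brain 1 and 2, cornea against bone marrow 2 and 2, and both microglia populations against bone marrow 3 and 0. The median log2 fold change of the 4 was -1.65 in cornea against retina and 2.05 in retina against bone marrow, beside -0.12 and 0.12 over all genes. Kcnk12, the close relative of Kcnk13 known as THIK-2, had 22.5 ± 7.85 CPM in brain, 8.28 ± 3.67 in retina, 3.13 ± 0.288 in bone marrow and 3 counts in all 4 cornea libraries together. It was lower in retina than in brain by -1.44 on the log2 scale (adjusted p = 0.0233). Kcnk5, an acid-sensitive two-pore channel, had 5.30 ± 2.00 CPM in cornea and at most 1 count in any other population.

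Of 15 inward rectifier genes 6 were tested; 1 was higher and 1 lower in retina than in brain, 3 were lower in cornea than in each microglia population, and 5 were higher in each microglia population than in bone marrow, where cornea gave 2 higher. Their median log2 fold change was -3.16 in cornea against retina and 6.77 in retina against bone marrow, beside -0.12 and 0.12 over all genes. Kcnj9, Kcnj12, Kcnj14 and Kcnj16 had no count in bone marrow and passed the filter through other populations. The direction and size of their differences from bone marrow were thus largely set by the filter. Kcnj14, the gene higher in retina than in brain, had 33.5 ± 32.7 CPM in retina, from 4.52 to 78.8 CPM, and at most 0.247 CPM on average elsewhere. The 8 rod markers also varied widely between retinal libraries, from 778 to 7082 CPM, and the relation of Kcnj14 to them was not tested. Kcnj10, the inward rectifier known from glia, had 7.60 ± 2.27 CPM in retina, 6.23 ± 3.71 in cornea, 4.72 ± 1.03 in brain and 0.147 ± 0.293 in bone marrow. Kcnj12 had 4.35 ± 2.20 CPM in retina and 2.08 ± 1.04 in brain and no count elsewhere, and Kcnj16 had 3.81 ± 1.28 CPM in brain and at most 0.111 CPM on average elsewhere.

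Voltage-gated genes passed the filter in 7 of 40 cases. In retina against brain 2 were higher and 0 lower; cornea against retina gave 1 higher and 3 lower, cornea against brain 2 and 1, cornea against bone marrow 4 and 0, retina against bone marrow 3 and 0, and brain against bone marrow 1 and 1. Kcnd1, an A-type channel, had the highest mean level of the list in both microglia populations: 121 ± 9.74 CPM in brain and 66.0 ± 9.83 in retina, against 0.628 ± 0.999 in cornea and 0.499 ± 0.596 in bone marrow. Its log2 fold change was -7.40 in cornea against brain, opposite in direction to that of Kcna3. Kcnd1 passed the filter through the microglia libraries, so the direction and size of this difference were largely set by the filter. Kcnv2, known from photoreceptors, had 35.3 ± 35.7 CPM in retina and no count elsewhere. It varied widely between retinal libraries, from 1.40 to 77.4 CPM, as did the 8 rod markers, from 778 to 7082 CPM. Its relation to the rod markers was not tested. Kcnh4 stayed at 1.55 ± 1.66 CPM or less.

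Of 8 calcium- or sodium-activated potassium channel genes, only Kcnn4 and Kcnma1 were tested. Kcnma1, the large-conductance BK channel, had 15.7 ± 2.60 CPM in brain and 10.0 ± 6.21 in retina, against 0.0192 ± 0.0384 in cornea and 0.061 ± 0.0944 in bone marrow. Kcnn4 was higher in cornea than in both microglia populations, and Kcnma1 lower (-8.41 on the log2 scale against retina). Kcnma1 passed the filter through the microglia libraries. The direction and size of its differences from cornea and bone marrow were thus largely set by the filter. The list gave 1 higher and 1 lower in cornea against each microglia population and 0 called in retina against brain. Each population against bone marrow gave 1 higher and 0 lower. Of 22 auxiliary subunit genes 6 were tested, with 1 higher and 0 lower in retina against brain, 1 and 1 in cornea against each microglia population, and 1 and 2 in each population against bone marrow. Kcnab2, the beta subunit that binds channels of the Kcna3 family, had 98.2 ± 18.1 CPM in bone marrow, 8.79 ± 1.88 in cornea, 8.12 ± 2.73 in retina and 0.674 ± 0.427 in brain. Its order differed from that of Kcna3, which was highest in cornea. Kcnip3, a partner of the Kcnd family, had 43.0 ± 9.58 CPM in retina and 22.8 ± 5.65 in brain, against 3.33 ± 2.68 in cornea and 0.751 ± 0.788 in bone marrow. Kcne3 had 18.1 ± 1.74 CPM in bone marrow and no count in microglia.

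Of 28 TRP channel genes 11 were tested, 4 of them members. Retina against brain gave 1 higher and 0 lower, cornea against retina 5 and 2, cornea against brain 6 and 2, cornea against bone marrow 8 and 1, retina against bone marrow 7 and 2, and brain against bone marrow 4 and 3. The median log2 fold change of the 11 was 1.19 in cornea against retina, 1.55 against brain and 2.07 against bone marrow, beside -0.12, 0.00 and 0 over all genes. The TRP gene with the highest length-scaled level was Mcoln2, which encodes the endolysosomal channel TRPML2: it had 149 ± 15.0 RPKM in cornea, above every member there, and 0.309, 0.013 and 0.128 RPKM in retina, brain and bone marrow. Its log2 fold change was 8.75 in cornea against retina (489 ± 49.3 against 1.02 ± 1.13 CPM). Mcoln2 passed the filter through the cornea libraries, so the direction and size of this difference were largely set by the filter. Mcoln1, the broadly expressed lysosomal relative, was higher in cornea than in retina by 1.29 (adjusted p = 3.995e-06), with 37.8, 15.5, 14.1 and 7.17 RPKM in cornea, retina, brain and bone marrow. Pkd2l2 had 17.2 ± 5.15 CPM in cornea and 5.19 to 5.39 CPM on average elsewhere. Trpm4, a calcium-activated channel for monovalent ions, had 27.1 ± 4.68 CPM in brain, 22.0 ± 11.2 in cornea, 13.6 ± 2.43 in retina and 5.05 ± 2.43 in bone marrow.

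**Figure D4:**
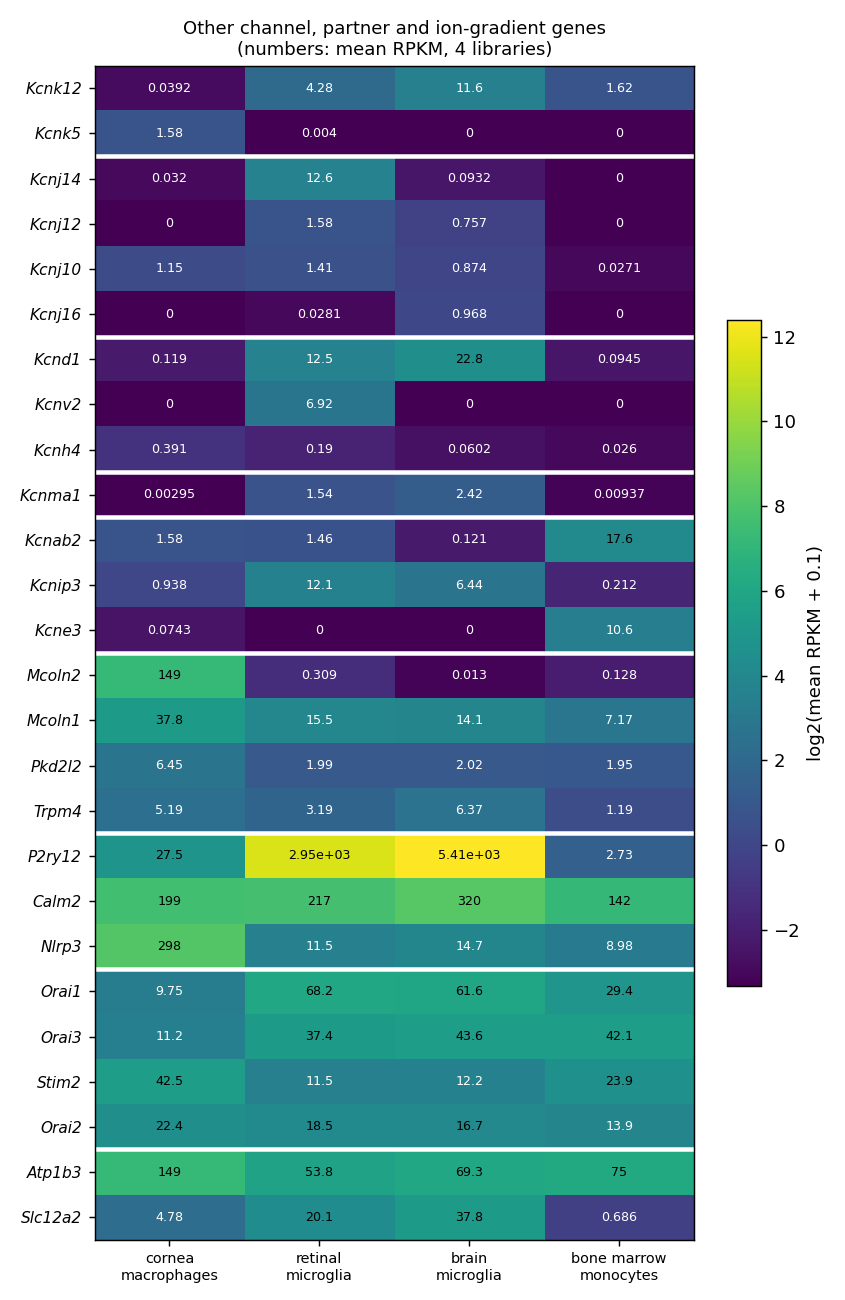
Rows are channel, partner, calcium entry and ion-gradient genes outside the 9 members, grouped by list with white lines, and columns are the 4 populations; colour is log2(mean RPKM + 0.1) and the printed number is the mean RPKM of 4 libraries. Mcoln2 (149) and Nlrp3 (298) are highest in cornea, P2ry12 in the microglia columns, and Kcnab2 and Kcne3 in bone marrow.

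Among 21 partner and activator genes 20 were tested. Retina against brain gave 2 higher and 4 lower, cornea against retina 7 and 7, cornea against brain 7 and 8, cornea against bone marrow 7 and 6, retina against bone marrow 9 and 7, and brain against bone marrow 10 and 7. P2ry12, whose receptor enhances the Kcnk13 current in microglia, had 13766 ± 517 CPM in brain, 7516 ± 1010.1 in retina, 70.1 ± 21.2 in cornea and 6.96 ± 1.57 in bone marrow. In cornea, Kcnk13 had 178 CPM whereas P2ry12 was lower than in retina (-6.74 on the log2 scale, adjusted p = 5.038e-13). Nlrp3, the sensor of potassium efflux, had 1207 ± 115 CPM in cornea, against 46.5 ± 7.89 in retina, 59.5 ± 5.38 in brain and 36.4 ± 5.83 in bone marrow (4.70 in cornea against retina, adjusted p = 4.884e-13). Calm2, one of the calmodulin genes whose product is the calcium sensor of the Kcnn4 channel, ranged from 208 ± 27.2 CPM in bone marrow to 469 ± 10.5 in brain.

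All 6 genes of store-operated and mechanical calcium entry were tested, and none was called between retina and brain; cornea against retina gave 2 higher and 3 lower, cornea against brain 3 and 3, cornea against bone marrow 3 and 3, retina against bone marrow 2 and 2, and brain against bone marrow 1 and 2. The pore genes Orai1 and Orai3 were lower in cornea than in retina (-2.80 and -1.74 on the log2 scale, adjusted p = 2.309e-09 and 4.973e-09), whereas the calcium sensor Stim2 was higher (1.88, adjusted p = 9.406e-07). Orai1 had 156 ± 32.1 CPM in retina and 141 ± 32.3 in brain, against 67.6 ± 7.85 in bone marrow and 22.4 ± 4.85 in cornea. Orai2 was more even, from 136 ± 26.1 CPM in cornea to 84.3 ± 6.91 in bone marrow. Of 10 genes for pumps and cotransporters that set the potassium gradient, 8 were tested: 2 higher and 1 lower in retina against brain, 4 and 4 in cornea against retina, 5 and 2 in cornea against brain, 6 and 2 in cornea against bone marrow, 4 and 2 in retina against bone marrow and 3 and 1 in brain against bone marrow. The sodium pump subunit gene Atp1b3 was higher in cornea (356 ± 16.0 CPM) than in retina (129 ± 22.3 CPM). Slc12a2, the sodium-potassium-chloride cotransporter, was highest in brain (246 ± 44.2 CPM) and lowest in bone marrow (4.47 ± 1.62).

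The genes most like each member were sought as those with the smallest root mean square difference of centred log2 CPM (prior count 2) over the 16 libraries, which share population and lane. Blnk, a signalling adaptor, was nearest to Kcnk13 (0.52), with 341, 217, 251 and 0.935 CPM on average in cornea, retina, brain and bone marrow, followed by Rapgef5 (0.70). Rasal3 (0.24), St3gal5 (0.31) and Pdk1 (0.32) were nearest to Kcnk6. For Kcnj2 these were RP24-544J6.4 (0.35), Klhl25 (0.40) and Zfp40 (0.42), and for Kcna3 they were Raph1 (0.60), Sh3bp4 (0.61) and Eif4a-ps4 (0.63). Vat1 (0.37), Lonrf3 (0.51) and Wbp5 (0.51) lay nearest to Kcnn4. The TRP members had Dzip3 (0.35), BC017158 (0.40) and Tbl2 (0.41) beside Trpm2, and CAAA01154573.1 (0.19), 5830432E09Rik (0.19) and Acd (0.20) beside Trpm7. Tor1aip1 (0.16) and Cox15 (0.17) were close to Trpv2, and Smim3 (0.57), Gt(ROSA)26Sor (0.58) and Zrsr2 (0.58) were nearest to Trpv4. No member was among the 3 genes nearest to another member.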

How the data were processed

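Per the file headers, the deposited table gives a count per gene and library (16 libraries, whole and not normalized) and, in another column, each gene's length in bases. The submitters' processing notes list the build GRCm38.p4 and the tools featureCounts, Subread, limma and CASAVA 1.8.2, without roles or order. The strand setting, annotation release and multi-mapping rules were not given in the sources used here. An extraction text describes a brainstem experiment and a stranded mRNA kit, so the kit was treated as uncertain.

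The filter on low counts was filterByExpr by population, with a minimum of 10. One edgeR fit (4.0.16, under R 4.3.3) took in the 16 libraries, scaled by TMM, with a term for population. Pairs of populations were contrasted by the quasi-likelihood test, and p was adjusted by Benjamini-Hochberg over 15754 genes. The SE was derived from the fold change and F, so it adds nothing to the test. The fit was tested on simulated data. DESeq2 1.42.0 served as an alternative. RPKM is CPM per kilobase of the deposited length. Values are mean ± SD over n = 4 libraries. Coordinates are those of GENCODE vM21 (GRCm38) and promoter windows those of RefSeq (GRCm38.p6).

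All 9 members were named. Of each list of other channel, partner, calcium entry and gradient genes, up to 4 called genes with the highest RPKM in a population were named. For likeness of pattern, the 3 nearest genes per member were named. A few genes that these rules pick are not reported here. The members and lists were chosen with earlier results of these data known. Alternatives were other scaling (total counts, RLE factors), DESeq2, no filter, only the populations compared, lane as a term, only libraries with the title letter b, title tags as a replicate block, and leaving out each library. Fits within a lane were chosen after seeing the data. Replicate numbers follow the order of deposition. Dates in place of symbols stood on 27 entries, none of them a member.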

Additional observations from a re-analysis of the deposited data

Results flagged for a closer look

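Of 36 groups of 4 libraries (9 members in 4 populations), 3 held a library far from the others by Dixon's test, which chance gives in about 1 of 20 groups. Kcnk13 had 138 CPM in cornea library 4, against 186 to 195 CPM in the other cornea libraries; this was the only cornea library in lane 3. Kcnj2 had 82.7 CPM in brain library 1, against 72.5 to 74.2 CPM in the other brain libraries. Trpm7 had 93.8 CPM in the same brain library, against 71.8 to 74.5 CPM in the others.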

How the results depend on the processing

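Of 918 values (9 members under each alternative), 867 kept their direction and their side of the threshold, 28 lost a call, 9 gained one and 14 reversed. DESeq2 and the fits of only the 2 populations compared changed none of their 54 values each. No value reversed from a call in one direction to a call in the other. With total counts alone, Kcnk13 turned to -0.54 in cornea against retina and to -0.53 in cornea against brain, both called, and to 0.011 in retina against brain, where Trpv2 turned to 0.0395. With lane as a term, Trpm7 was -0.0409 and Trpv2 0.0416 in retina against brain, and Kcnj2 0.10 in cornea against bone marrow. Kcnj2 in that comparison was 1.07 with lane 2 libraries only, -0.86 with lane 3 libraries only and -1.02 with total counts alone (the last 2 called), and ranged from -0.62 to 0.0115 over the fits without 1 library, turning without bone marrow library 4. Kcnn4 in brain against bone marrow ranged from -0.28 to 0.49 over those fits and turned without brain library 4 (-0.28) or bone marrow library 4 (-0.21). Fits within a lane were chosen after seeing the data: Kcnk13 in cornea against brain was -0.25 in lane 3, and Kcnn4 in retina against bone marrow was -0.25 in lane 2. Members called in retina against brain ranged from 1 to 2 over the fits without 1 library. All genes called in retina against brain were 1662, and 463 (316 higher, 147 lower) with lane as a term. In lane 2, with 1 bone marrow library that is assumed to vary like the others, 6239 genes were called in cornea against bone marrow (9980 in all lanes), and 5378 genes (9340) and 4 members (7) in retina against bone marrow. Only 2 title tags recur in brain and bone marrow, with correlations across genes of -0.01 and 0.03 between libraries of the same tag. Other pairs of brain and bone marrow libraries gave -0.03 to 0.04. These correlations cannot show whether libraries of the same tag share animals or handling. With the tags as a replicate block, 813 genes were called in retina against brain, Kcnk13 turned to 0.17 there, and no member gained or lost a call. Kcnk13 in bone marrow rests on 26 counts, which limits the precision of its fold changes.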
